A study of Mus musculus with 6 samples.

Results

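The genes that carry out and restrain programmed cell death were examined in stable clones of NIH3T3 cells with and without human FEAT. The set held 46 genes of the BCL2 family, the caspases, the death receptors and their inhibitors, taken by gene name and not by any measured value, since FEAT was studied as a suppressor of apoptosis. A probe carried the name of 43 of the 46 genes, with 114 probes among the 45281 of the array, which named 19057 genes in all. Bax, Endog and Ripk1 had no probe of that name in the probe annotation used and were not analysed here. The brightest probe of 39 of the 43 genes passed the filter on dim probes and was tested, and the brightest probes of Bik, Hrk, Birc3 and Api5 did not pass it.

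Apoptosis runs along an intrinsic and an extrinsic route. In the intrinsic route, BH3-only proteins sense stress and either activate the pore formers of the outer mitochondrial membrane or bind the BCL2-like guardians that hold them back. The pores release cytochrome c, which assembles with Apaf1 into the apoptosome and activates Casp9. In the extrinsic route, ligands of Fas and of related receptors gather Fadd and Casp8 at the membrane, where Cflar competes with Casp8. Inhibitor of apoptosis proteins block caspases further down. Cultured fibroblasts need survival signals from serum, and the balance between these groups sets how readily they die.

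NIH3T3 cells are immortalized embryonic fibroblasts of the NIH Swiss strain. Clones FEAT-3, FEAT-15 and FEAT-20, written here as FEAT 3, FEAT 15 and FEAT 20, express the human open reading frame from the elongation factor 1alpha promoter of pEF-DEST51. They came from colonies kept in blasticidin S at 10 µg/ml for 7 days and were picked because FEAT protein was overexpressed. The lines ∆ccdB-1, ∆ccdB-2 and ∆ccdB-3, written here as control 1, control 2 and control 3, were stably transfected with the vector after its ccdB gene had been removed. All 6 lines share the parent cells and the vector backbone. Each FEAT line is 1 picked clone, and the controls are called clones here too, although the labels call them cell lines and the sources used here do not state how they were selected. No death stimulus is named in the labels, so the values describe cells as they were grown. In RNA from a whole culture, fewer cells that express a gene and less RNA per cell cannot be told apart.

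A single array was measured per clone, with mean intensities between 616 and 735 and between 36.9% and 39.8% of probes brighter than a background limit set for each array. With 3 arrays a group, precision is limited by their number. Of 12 fibroblast markers, 11 were above the limit on all 6 arrays, and Postn was above it on none. Markers of other cell types were mostly below it: 4 of 6 epithelial, 4 of 5 endothelial, 3 of 4 immune and 3 of 5 neural genes were above the limit on no array. The exceptions on all 6 arrays were the epithelial genes Krt14 and Cdh1, the myeloid gene Lyz2 and the neural gene Syn1. Summed over its measured members, the immune list read 479 to 926 in the control clones and 589 to 653 in the FEAT clones. Levels below are deposited intensities scaled to a common mean per array, and log2 differences are FEAT minus control on background-corrected, quantile-normalized values, from the brightest probe unless stated otherwise.

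No gene of the set differed between the groups at an adjusted p under 0.05. limma called 0 of the 39 genes, where it called 0.225% of the 13315 genes tested, and 0 of the 92 member probes tested, where it called 0.184% of all 27169 probes. The lowest adjusted p of any member was 0.380, for Cflar. At an unadjusted p under 0.05, 6 of the 39 genes (15.4%) were counted, 3 higher in the FEAT clones (Bcl2l11, Casp2 and Bag3) and 3 lower (Bak1, Xiap and Cflar), against 10.1% of all genes tested, 5.2% higher and 4.94% lower. Over probes these were 12 of 92, against 9.08% of all probes. The groups did not overlap on the normalized scale in 8 of the 39 genes (20.5%), 5 higher and 3 lower, against 15.2% of all genes, 7.95% higher and 7.24% lower. Xiap, among the lower genes in both counts by gene, was above the background limit on no array. The deposited intensities gave 6 genes without overlap, a count for which the share over all genes was not taken.

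The differences lay on both sides of 0. Of the 39 genes, 21 had a log2 difference above 0 and 18 below, with a median of 0.026 over the set and 0.0071 over all genes tested. Their median size was 0.11, against 0.13 over all genes. The range ran from -0.51 for Casp1 to 0.53 for Fas. Casp1 was above the background limit in control 2 alone, and its value was -0.082 without that clone. These were the 2 genes with a size of 0.5 or more, a size that 4.25% of all genes reached. For 36 of the 39 genes the 95% interval lay wholly within a 2-fold change in either direction, and for 27 within a 1.5-fold change. These bounds are for the processed probe signal and depend on its processing. Without background correction the log2 differences of Casp1, Bak1 and Cflar were -0.30, -0.33 and -0.49, against -0.51, -0.39 and -0.50. The exceptions to the 2-fold bound were Pmaip1, Casp1 and Fas. Among the 36 were Bmf, Casp12 and Dapk1, whose brightest probes were not above the background limit on every array. Another was Xiap, whose brightest probe was above it on no array. The intervals of these genes say little about the size of a change.

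**Figure D1:**
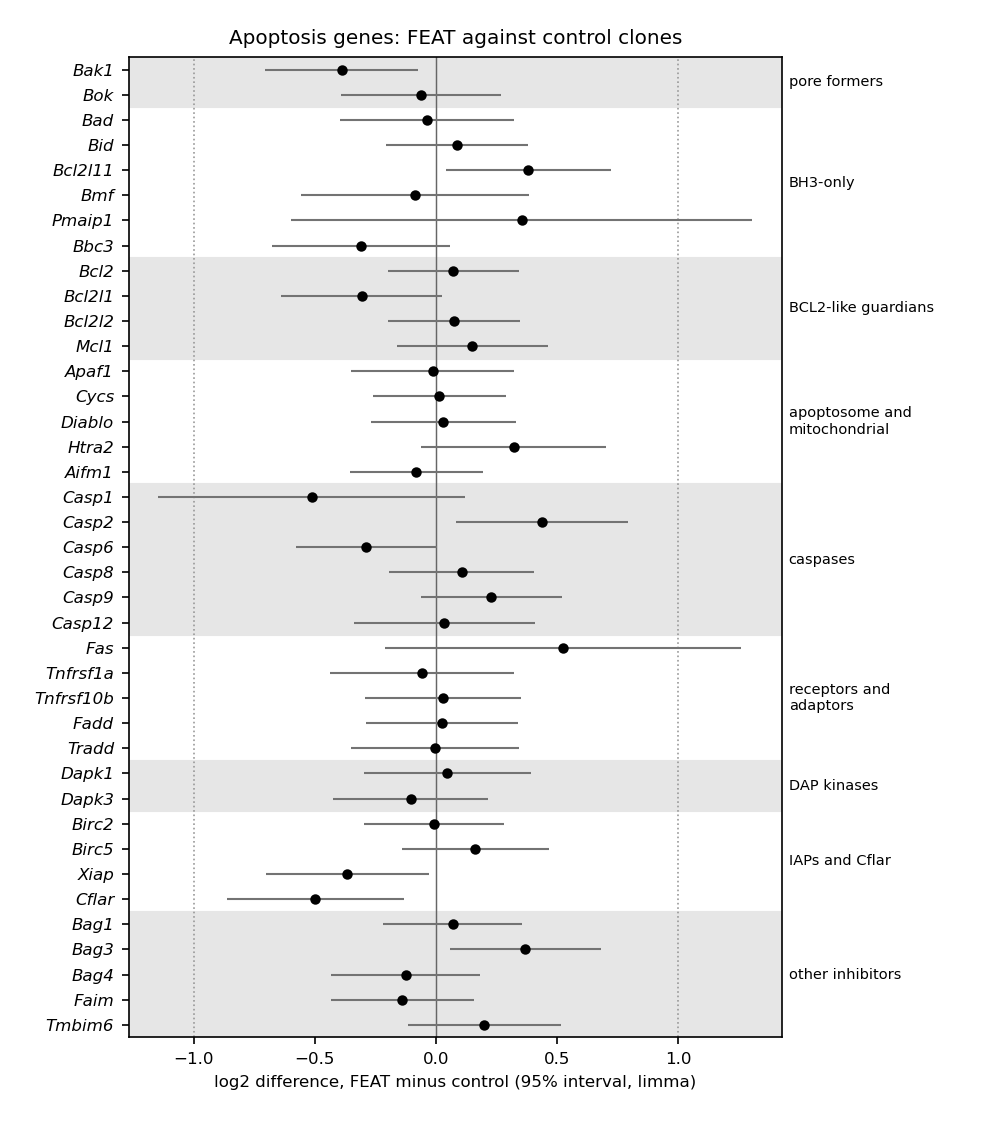
Log2 difference of each tested gene between the 3 FEAT and the 3 control clones (points) with its 95% interval (bars), grouped by role; dotted lines mark a 2-fold change. The intervals of 36 of 39 genes stay inside the dotted lines, and those of Pmaip1, Casp1 and Fas cross one of them. Bmf, Casp12 and Dapk1, among the 36, were not above the background limit on every array, and Xiap, also among them, was above it on none.

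The promoters of the genes with the smallest unadjusted p that were above background and had a single listed start are given here, from 250 bases before to 50 after the start (RefSeq, GRCm38.p6, 5′ to 3′ on the strand of the gene). Such a window was found for 39 of the 46 genes, 53 windows in all. Capitals mark matches, on either strand, to the GC box GGGCGG, the CCAAT box CCAAT, the TATA box TATAAA, the heat shock element GAANNTTC, the cyclic AMP response element TGACGTCA and the FOXO motif GTAAACA. Matches describe the letters and are no evidence of binding.
Cflar, chr1:58711241-58711540, plus strand: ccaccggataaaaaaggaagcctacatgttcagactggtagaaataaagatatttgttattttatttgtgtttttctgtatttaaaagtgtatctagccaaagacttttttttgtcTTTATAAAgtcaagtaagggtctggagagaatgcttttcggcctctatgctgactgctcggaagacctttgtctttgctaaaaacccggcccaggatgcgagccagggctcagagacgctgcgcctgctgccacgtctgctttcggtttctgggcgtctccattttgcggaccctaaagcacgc
Casp2, chr6:42264735-42265034, plus strand: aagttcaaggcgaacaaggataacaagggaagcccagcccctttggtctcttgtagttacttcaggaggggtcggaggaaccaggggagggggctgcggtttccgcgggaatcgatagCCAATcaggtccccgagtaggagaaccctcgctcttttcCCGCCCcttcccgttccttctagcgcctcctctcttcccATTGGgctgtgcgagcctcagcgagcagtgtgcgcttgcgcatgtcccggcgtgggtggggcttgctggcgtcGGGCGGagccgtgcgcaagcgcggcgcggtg
Bak1, chr17:27028578-27028877, minus strand: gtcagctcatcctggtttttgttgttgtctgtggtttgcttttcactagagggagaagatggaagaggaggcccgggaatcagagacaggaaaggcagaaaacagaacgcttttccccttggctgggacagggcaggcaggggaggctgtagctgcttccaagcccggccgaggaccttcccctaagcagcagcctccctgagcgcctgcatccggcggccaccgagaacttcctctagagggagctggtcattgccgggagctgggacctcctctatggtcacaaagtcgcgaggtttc
Bag3, chr7:128523333-128523632, plus strand: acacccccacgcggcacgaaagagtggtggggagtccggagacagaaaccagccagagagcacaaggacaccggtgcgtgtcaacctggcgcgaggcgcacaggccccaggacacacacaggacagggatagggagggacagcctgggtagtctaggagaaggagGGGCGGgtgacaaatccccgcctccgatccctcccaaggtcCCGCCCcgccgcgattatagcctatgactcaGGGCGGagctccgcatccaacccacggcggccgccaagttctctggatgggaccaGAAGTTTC

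The Cflar window had 45.0% G or C, against 63.7%, 58.3% and 64.3% in Casp2, Bak1 and Bag3. It had overlapping matches to the TATA box on both strands, and it held no GC box. The Casp2 window held 2 GC boxes and 2 CCAAT boxes. The Bag3 window held 3 GC boxes and, within its last bases, 1 match to the heat shock element. The Bak1 window held none of the 6 motifs. GC boxes were in 67.9% of the members' windows and in 35.7% of all 32841 windows, and the members' windows were richer in G and C, at a median of 62.0% against 52.7%. The TATA box was in 3.8% against 13.6%, the CCAAT box in 34.0% against 37.4%, and the heat shock element in 7.5% against 7.9%. The cyclic AMP response element was in 5.7% against 1.8%, and the FOXO motif, found in Bbc3 and Bcl2l11, in 3.8% against 3.7%. The NF-kB motif was in 13.2% against 8.5%, and the p53 decamer, found in Bax, Birc2, Birc5 and Bmf, in 7.5% against 8.4%. Neither was found in the Fas window, which says only that these letters are not in that stretch.

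Among the pore formers, Bak1 was lower in the FEAT clones without passing. Bak1 (probe ILMN_2945835), an effector that permeabilizes the outer mitochondrial membrane, read 294, 313 and 284 in control 1, control 2 and control 3, and 245, 209.7 and 260.1 in FEAT 3, FEAT 15 and FEAT 20. All 3 FEAT clones lay below all 3 control clones, with a log2 difference of -0.39 (95% interval -0.70 to -0.072, limma adjusted p = 0.425). Bok, a BCL2 relative placed mostly at the endoplasmic reticulum, read 2567, 2344 and 3336 in the control clones, and 2576, 2636 and 2708 in the FEAT clones. The FEAT clones lay within the range of the control clones (2749 ± 521 against 2639.8 ± 65.9, mean ± SD, n = 3 each), and its log2 difference was -0.061 on this probe and -0.11 on the other (adjusted p = 0.938 and 0.857).

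The BH3-only genes, whose products start the intrinsic route, split 3 above and 3 below 0 among the 6 tested, with a median log2 difference of 0.026. Bcl2l11 (probe ILMN_3157568), which encodes Bim and is known for killing cells deprived of growth factors, read 465, 418 and 453 in control 1, control 2 and control 3, and 491, 719.7 and 559.6 in FEAT 3, FEAT 15 and FEAT 20. The FEAT clones lay above the control clones, mostly through FEAT 15, with a log2 difference of 0.38 (95% interval 0.043 to 0.72, limma adjusted p = 0.479). Its probes went opposite ways. A dimmer probe, ILMN_1229255, read 113, 127 and 109.7 in the control clones, and 98.1, 103 and 93.3 in the FEAT clones, so that every FEAT clone lay below every control clone, with a log2 difference of -0.42 (adjusted p = 0.401) and 1 of 3 FEAT arrays above the background limit. The probes between them in brightness and below them gave 0.10 and -0.018, and the mean of the tested probes gave 0.011.

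Bbc3, which encodes the p53-inducible protein Puma, read 867, 840.0 and 671 in control 1, control 2 and control 3, and 628, 564 and 791 in FEAT 3, FEAT 15 and FEAT 20. The groups overlapped through FEAT 20, and the log2 difference was -0.31 (95% interval -0.68 to 0.057, adjusted p = 0.621), with -0.17 and -0.19 on the other probes. Bad, which is held inactive by growth factor kinases, gave -0.037, Bid, the link from Casp8 to mitochondria, 0.089, and Bmf, a sensor of cytoskeletal stress, -0.085 (adjusted p = 0.971, 0.887 and 0.939). Bmf was above the background limit on 2 of 3 arrays of each group. Bik and Hrk were not above it on any array.

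Of the 4 BCL2-like guardians, which keep the pore formers in check, Bcl2l1 alone had a log2 difference below 0. The median of the 4 was 0.074. Bcl2l1, which encodes Bcl-xL, read 1454, 1278 and 1638 in control 1, control 2 and control 3, and 1114, 1415 and 1097 in FEAT 3, FEAT 15 and FEAT 20. FEAT 15 lay among the control clones and FEAT 3 and FEAT 20 lay under all of them, with a log2 difference of -0.31 (95% interval -0.64 to 0.026, adjusted p = 0.587). The next probes gave -0.44 and -0.38 (adjusted p = 0.434 and 0.436), with no overlap between the groups on the normalized scale for either, and the dimmest gave -0.060.

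Mcl1, a short-lived guardian, read 2529, 2821 and 3202 in control 1, control 2 and control 3, and 3268, 3311 and 2937 in FEAT 3, FEAT 15 and FEAT 20. The groups overlapped, and the log2 difference was 0.15 (95% interval -0.16 to 0.46, adjusted p = 0.802). Bcl2, the founding member of the family, and Bcl2l2, which encodes Bcl-w, gave 0.073 and 0.074 (adjusted p = 0.904 and 0.903), with other tested probes from -0.12 to 0.16 for Bcl2 and from -0.14 to 0.11 for Bcl2l2. Their brightest probes varied little between clones. Bcl2 read 241, 259 and 253 in the control clones, and 256, 263 and 269.8 in the FEAT clones, and its normalized values kept the FEAT clones just above the control clones, while the intensities overlapped.

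The apoptosome and the proteins that leave the mitochondrion gave log2 differences between -0.080 and 0.032 on their brightest probes, apart from Htra2. Htra2, a serine protease that degrades inhibitors of apoptosis, read 2538, 3024 and 2046 in control 1, control 2 and control 3, and 2626, 3140.0 and 3831 in FEAT 3, FEAT 15 and FEAT 20. Control 2 lay among the FEAT clones, and the log2 difference was 0.32 (95% interval -0.060 to 0.70, adjusted p = 0.621). Its other probes gave 0.22 and 0.38. On the latter every FEAT clone lay above every control clone, at 1265, 1268 and 1122 in the control clones, and 1499.8, 1596 and 1719 in the FEAT clones (adjusted p = 0.390). Aifm1, a flavoprotein that can act in the nucleus after release, read 488, 448 and 461 in the control clones, and 447, 442 and 465 in the FEAT clones, with a log2 difference of -0.080 (adjusted p = 0.893) and 0.095 on the next probe. Apaf1, the scaffold of the apoptosome, gave -0.012 (95% interval -0.35 to 0.32), Cycs, cytochrome c itself, 0.015 (-0.26 to 0.29) with 0.032 and 0.34 on its other probes, and Diablo, the mouse Smac that neutralizes inhibitors of apoptosis, 0.032 (-0.27 to 0.33). Adjusted p was 0.990, 0.984 and 0.970 for the brightest probes of these genes and 0.578 for the dimmest of Cycs.

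The caspases, the cysteine proteases that execute the program, gave 4 log2 differences above and 2 below 0, with a median of 0.071. Casp2 (probe ILMN_2637266), an initiator linked to DNA damage and to the number of centrosomes, read 1495, 1708 and 1749.7 in control 1, control 2 and control 3, and 1744, 2402 and 2729.7 in FEAT 3, FEAT 15 and FEAT 20. FEAT 15 and FEAT 20 were the high clones, and FEAT 3 lay at the level of control 3. The intensities overlapped and the normalized values did not, with a log2 difference of 0.44 (95% interval 0.082 to 0.79, limma adjusted p = 0.424). The other probe (ILMN_1228387) gave 0.29 (adjusted p = 0.552), with every FEAT clone above every control clone. Without FEAT 20 the log2 difference of Casp2 was 0.32.

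Casp6, an executioner that cleaves lamins, read 914, 852 and 953 in control 1, control 2 and control 3, and 746, 833 and 712 in FEAT 3, FEAT 15 and FEAT 20. Every FEAT clone lay below every control clone, with a log2 difference of -0.29 (95% interval -0.58 to 0.0033, limma adjusted p = 0.557) and -0.39 on the other probe. Casp8, the initiator at the death receptors, gave 0.11, and Casp9, that of the apoptosome, 0.23 (adjusted p = 0.861 and 0.652), although the dimmer probes of Casp9, above the limit on 1 array at most, gave -0.22, -0.042 and -0.14. Casp12, a caspase at the endoplasmic reticulum, gave 0.036 with 1 array above the limit in each group. Casp1, the inflammatory caspase of inflammasomes, was above the limit in control 2 alone, at 139 against 71.2 to 90.8 in the other 5 clones. Lyz2, the myeloid marker, was highest in the same clone, at 694 against 246 to 414 in the others, whereas the leukocyte markers Ptprc and Itgam were above the limit on no array. Their part in the result was not tested.

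**Figure D2:**
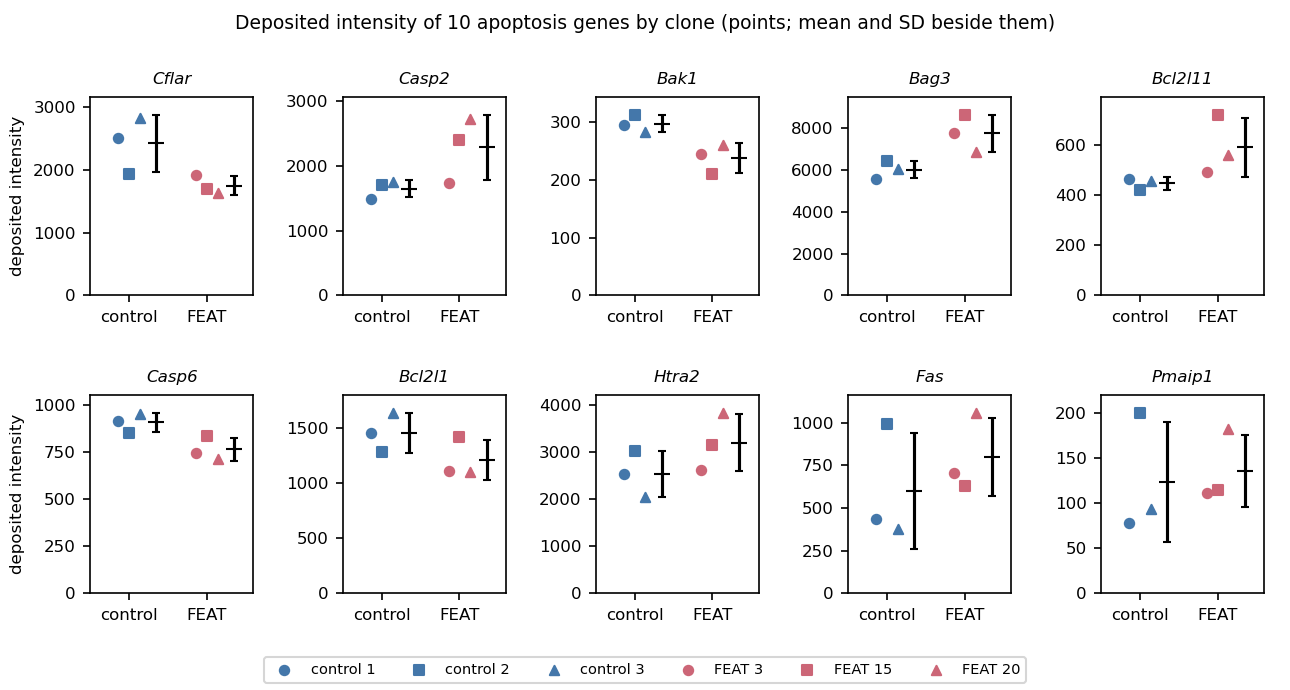
Deposited intensity (vertical axes, from 0) of 10 genes in the 3 control clones (blue) and the 3 FEAT clones (red), a point per clone, with the mean and SD of each group beside the points. Bak1, Bag3, Bcl2l11, Casp6 and Cflar show no overlap between the groups, while control 2 and FEAT 20 are the highest clones for Fas and Pmaip1.

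The death receptors and their adaptors gave log2 differences between -0.058 and 0.032, except for Fas. Fas (probe ILMN_2902979), the receptor of Fas ligand and a p53 target, read 434, 990.4 and 377 in control 1, control 2 and control 3, and 704, 631 and 1057 in FEAT 3, FEAT 15 and FEAT 20. Control 2 and FEAT 20 were high, control 1 and control 3 low, and FEAT 3 and FEAT 15 lay between them. The log2 difference was 0.53 with a wide 95% interval of -0.21 to 1.26 (adjusted p = 0.685). The next probe ranked the clones in nearly the same way, at 219, 482 and 209 in the control clones, and 339, 388 and 468 in the FEAT clones (0.56, adjusted p = 0.624). The size rested on single clones: without control 2 the log2 difference was 0.99 (adjusted p = 0.0761), and without control 3 it was 0.24.

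Tnfrsf1a, the main receptor of tumour necrosis factor, read 892, 1169 and 753 in the control clones, and 847, 1021 and 861 in the FEAT clones. Control 2 was again the highest clone, and the log2 difference was -0.058 (adjusted p = 0.950), with 0.090 and 0.044 on the other probes. Tnfrsf10b, the mouse receptor of TRAIL, gave 0.032, and the adaptors Fadd and Tradd gave 0.026 and -0.0042 (adjusted p = 0.972, 0.978 and 0.997). The other probes of Fadd gave 0.16, 0.31 and 0.020 (adjusted p = 0.817, 0.608 and 0.985), all above the background limit on every array. Of the death-associated protein kinases, Dapk3 read 787, 837 and 767 in the control clones, and 729, 668 and 899 in the FEAT clones, with FEAT 20 the highest and FEAT 15 the lowest clone, a log2 difference of -0.10 (adjusted p = 0.877). Dapk1 read 88.8, 98.4 and 111 in the control clones, and 114, 96.4 and 93.3 in the FEAT clones, a log2 difference of 0.048 (adjusted p = 0.956), and was above the background limit on 1 control array and 2 FEAT arrays.

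Cflar had the lowest adjusted p of the set. Cflar encodes c-FLIP, a catalytically inactive relative of Casp8 that blocks its activation at the death receptors. Its brightest probe, ILMN_2426115, read 2499.7, 1927 and 2831 in control 1, control 2 and control 3, and 1919.5, 1692 and 1626 in FEAT 3, FEAT 15 and FEAT 20. All 3 FEAT clones lay below control 1 and control 3, and FEAT 3 lay at the level of control 2. This gave a log2 difference of -0.50 (95% interval -0.86 to -0.13, limma adjusted p = 0.380), a fold of 0.709. FEAT 3 lay just below control 2 in intensity and just above it after quantile normalization. Its 2 other probes were above the background limit on no array and were not tested.

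Of the 3 inhibitor of apoptosis genes tested, Birc5 was above 0 and Birc2 and Xiap below. Birc5, or survivin, which also serves in mitosis and is high in dividing cells, gave 0.16 (95% interval -0.14 to 0.47, adjusted p = 0.775), with 0.15 and 0.22 on its other probes. Birc2, a ubiquitin ligase of death receptor complexes, gave -0.0064 (adjusted p = 0.994), with other probes from -0.43 to 0.19. Xiap, the direct caspase inhibitor, had -0.36 on its brightest probe (adjusted p = 0.507) and 0.29 on the next. It read 84.6, 94.0 and 80.6 in the control clones, and 86.6, 68.6 and 74.4 in the FEAT clones, and none of its probes was above the background limit on any array, so neither value shows a level. Birc3 was not above the limit on any array either.

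Of the 5 remaining inhibitors tested, 3 were above and 2 below 0, with a median of 0.070. Bag3 (probe ILMN_1226195), a partner of the chaperone Hsp70 that is induced by heat shock and sustains selective autophagy, read 5575, 6408 and 6063 in control 1, control 2 and control 3, and 7768, 8638 and 6854 in FEAT 3, FEAT 15 and FEAT 20. All 3 FEAT clones lay above all 3 control clones, with a log2 difference of 0.37 (95% interval 0.057 to 0.68, limma adjusted p = 0.448). Tmbim6, a Bax inhibitor in the membrane of the endoplasmic reticulum, read 9595, 9164 and 10667 in the control clones, and 11682, 12341 and 9977 in the FEAT clones. FEAT 20 lay among the control clones, and the log2 difference was 0.20 (95% interval -0.11 to 0.52, adjusted p = 0.727). Bag1, another Hsp70 partner, gave 0.070, Bag4, which silences tumour necrosis factor receptors, -0.12, and Faim, an inhibitor of Fas killing, -0.14 (adjusted p = 0.915, 0.840 and 0.809). Api5 was not above the background limit on any array.

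Where a gene had several tested probes, they did not always agree in sign. The signs differed in 12 of the 27 genes with 2 or more tested probes, and the other 15 had the same sign on all of them. For Bag4, Casp9, Casp12 and Xiap the probes opposite in sign to the brightest were above the background limit on 1 array at most. The brightest probe of Xiap was itself above it on no array, and that of Casp12 on 1 array of each group. All tested probes of Apaf1 and Tnfrsf10b lay between -0.032 and 0.032. The share over all genes with several probes was not taken. Bak1, Bag3 and Cflar each had a single tested probe, so their differences have no other probe to set beside them.

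The clones differed from each other within a group as well as between groups. The SD between clones of a group, pooled over both groups, had a median of 0.163 on the log2 scale over the 39 genes and 0.178 over all genes tested. With a single array per clone, this SD also holds differences of culture, extraction and array. The SD was smallest for Bcl2 (0.0445), Bcl2l2 (0.0537), Cycs (0.0590) and Aifm1 (0.0662), which lay at or below the 3.37 percentile of all genes. Among the 33 genes that were above the background limit on all 6 arrays it was largest for Fas, at 0.641, the 99.1 percentile of all genes. Pmaip1 and Casp1 gave 0.857 and 0.538, but 2 control arrays of Pmaip1 and 5 arrays of Casp1 were below the limit, so these SDs include values at background. Bcl2, Pmaip1 and Casp1 fall outside the rule for genes given in full and were added after their values were seen.

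Pmaip1 (probe ILMN_2670625), which encodes the BH3-only protein Noxa and is another p53 target, read 78.0, 199.8 and 93.2 in control 1, control 2 and control 3, and 111, 114 and 182 in FEAT 3, FEAT 15 and FEAT 20. Control 2 and FEAT 20 were again the high clones, and control 1 and control 3 were below the background limit, so their distance from the others is not measured. The order of the clones was the same in both genes but for neighbouring pairs: control 1 and control 3, FEAT 3 and FEAT 15, and control 2 and FEAT 20. The difference between the groups was 0.36 for Pmaip1, with a 95% interval of -0.60 to 1.31 (adjusted p = 0.855). Without control 2 it was 0.95 (adjusted p = 0.225), and without control 1 it was -0.045. The first of these sets the FEAT clones against control 1 and control 3, both below the limit, so its size is not measured. The other probes of Pmaip1 were above the limit on no array. Bbc3 did not show this order, with FEAT 15 and FEAT 3 the lowest clones. Nor did Tnfrsf10b, with FEAT 3 the highest and FEAT 20 the lowest clone, or Apaf1, with control 3 the highest. Steap3, of the other list below, did not show it either, with every FEAT clone below every control clone. A part of p53 in these levels was not tested.

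**Figure D3:**
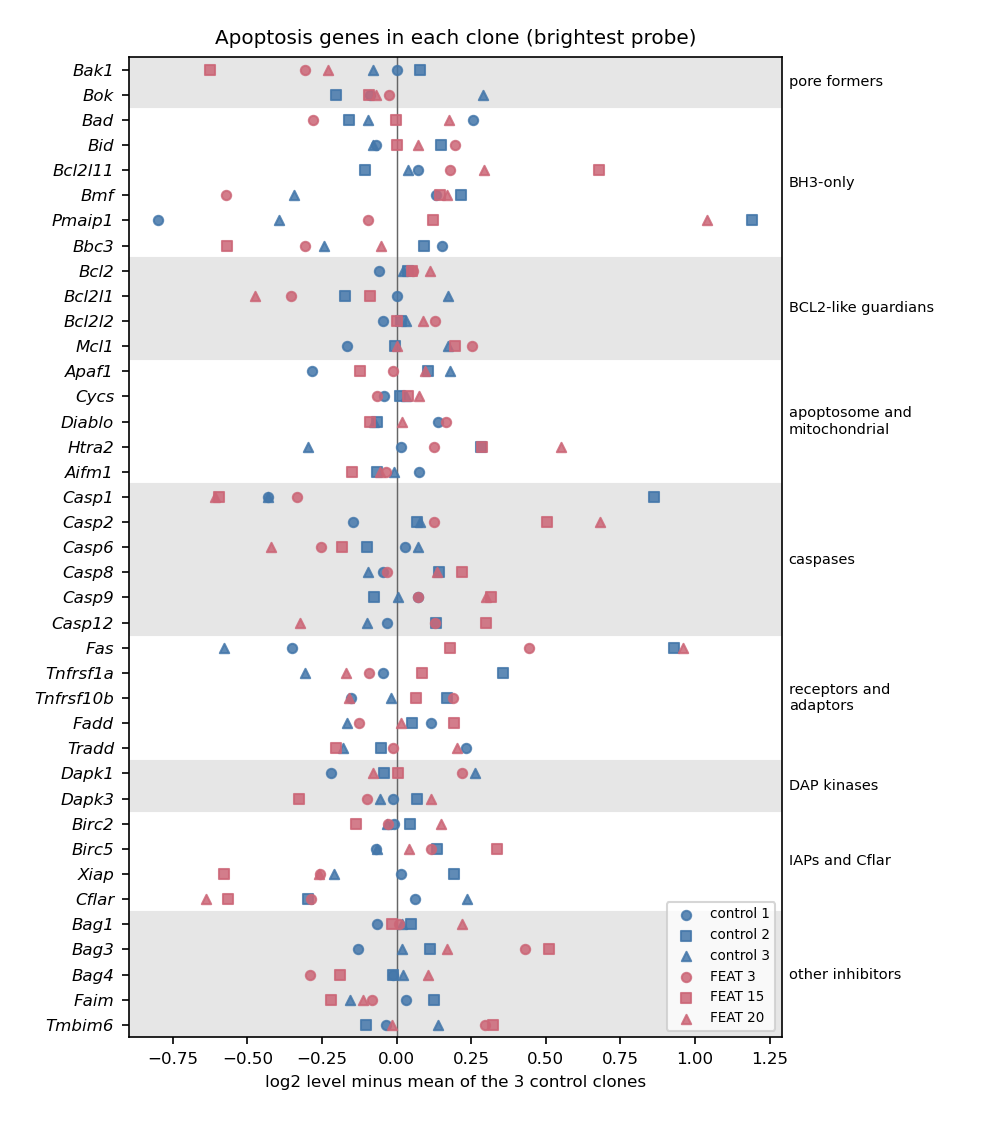
Level of each tested gene in each clone, as log2 difference from the mean of the control clones (horizontal axis), for control (blue) and FEAT (red) clones, grouped by role. Pmaip1, Casp1 and Fas spread widest, with control 2 (blue squares) far to the right in each and FEAT 20 (red triangles) beside it for Pmaip1 and Fas. The low clones of Pmaip1 and Casp1 are below the background limit.

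Control 2 held the highest value for 7 of the 39 genes and the lowest for 4, FEAT 20 the highest for 9 and the lowest for 6, FEAT 15 the highest for 8 and the lowest for 9, and control 1 the highest for 4 and the lowest for 10. Control 3 was highest for 6 and lowest for 6, and FEAT 3 highest for 5 and lowest for 4. Over all genes tested each clone was highest for 14.7% to 17.6% and lowest for 15.3% to 19.0%. The median deviation of the set from the control mean was -0.032, 0.053 and -0.034 in control 1, control 2 and control 3, and -0.025, 0.0027 and 0.070 in FEAT 3, FEAT 15 and FEAT 20, so the medians of the groups overlapped.

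**Figure D4:**
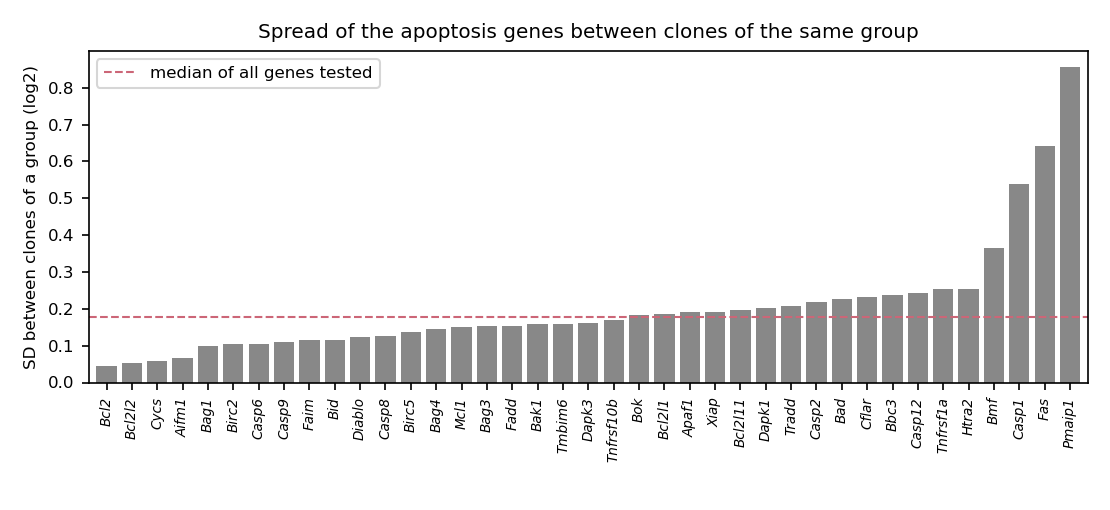
SD between clones of the same group, with a single array per clone, on the log2 scale, pooled over the control and FEAT groups (bars from 0). The 39 tested genes are in rising order, and the dashed line is the median of all genes tested, 0.178. Bcl2 has the smallest spread, at 0.0445, and Fas, at 0.641, the largest of the genes above background on all arrays; the bars of Pmaip1 and Casp1 include arrays below the background limit.

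Other genes of cell death were counted from a list of 72, of which 66 had a named probe and 54 were tested. Of these, 22 were above 0 and 32 below, with a median of -0.051. limma called 1 of them, Steap3, lower in the FEAT clones, where it called 0.225% of all genes. At an unadjusted p under 0.05, 2 were higher and 6 lower (14.8%), against 10.1% of all genes, 5.2% higher and 4.94% lower. Steap3 is a ferrireductase that also goes by a name as a p53-inducible gene. It read 1296, 1369 and 1193 in the control clones, and 662, 719 and 722 in the FEAT clones, a log2 difference of -0.95 (limma adjusted p = 0.0192). This probe was above the background limit on all 6 arrays. The other Steap3 probes gave 0.11, -0.25 and 0.092 and did not pass, but they were above the limit on only 4, 4 and 0 of the 6 arrays. The call was lost without control 1, control 3 or FEAT 3 (adjusted p = 0.148, 0.0584 and 0.0691), at log2 differences between -1.01 and -0.94. It was also lost with the mean of the tested probes, which takes in these dimmer probes, at -0.25 (limma adjusted p = 0.567). Traf2, an adaptor of tumour necrosis factor receptors, read 89.4, 112 and 94.7 in the control clones, and 131, 119.8 and 119 in the FEAT clones (0.52, adjusted p = 0.264), with 1 control array and 3 FEAT arrays above the limit. Aven, an inhibitor that binds Bcl-xL and Apaf1, read 1418, 1666 and 1453 in the control clones, and 1097, 1139 and 1385 in the FEAT clones (-0.36, adjusted p = 0.448). Casp14, the caspase of skin cornification, read 83.7, 85.6 and 85.1 in the control clones, and 158, 128 and 89.4 in the FEAT clones (adjusted p = 0.246), with FEAT 3 and FEAT 15 alone above the limit. Without FEAT 20 Casp14 passed (adjusted p = 0.0187).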

How the data were processed

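Total RNA of the 3 FEAT and 3 control lines was amplified (Illumina TotalPrep), labelled with Cy3 and read on bead arrays, 1 for each line, per the labels' protocols. The submitters' processing notes name BeadStudio, without a version in the sources used here. The authors deposited linear probe intensity values per array, without background subtraction or detection p, and a value table of the series that holds the same intensities scaled to a mean of 680 on every array (factors of 0.925 to 1.10). Groups and clone names came from the sample titles.

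Values were processed in R 4.3.3 with limma 3.58.1: normexp on the signals with offset 16, quantile normalization, log2, and the top 60% of probes by mean (27169). FEAT was compared with control by lmFit and eBayes (two-sided), and p-values were adjusted by Benjamini and Hochberg's method across the 27169 probes, with a threshold of 0.05. No permutation test was run on single genes, since an exact two-sided test with 3 clones a side reaches 0.1 at best. Nothing in the labels says how the RNA of each clone was cultured or extracted in relation to the others. The p-values therefore measure the spread between the arrays of a group, in which clone, culture, extraction and array cannot be told apart. Each gene is represented by its brightest probe on average. Levels printed are those of the scaled table. The background limit of an array was taken 3 SDs above the mode of its log2 intensities, where the SD is that of the dimmer values about the mode. It was set after the values were seen.

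Gene names came from GEO's annotation of the platform (34885 with 1 gene, 18 with several, 10378 unnamed here). The members, role groups, other lists and the rule for named genes were chosen with earlier results of these data known. That rule gives clone values for members past the threshold, for the 2 members of each role group with the smallest unadjusted p, and for members without overlap at 0.5 or more. For the other list it names the 4 genes with the smallest unadjusted p. A simulation of the comparison of FEAT with control on 27169 probes, 50 of them changed at each fold, was used to test the script. In it, 26% were recovered at 1.5-fold and 100% at 2-fold, 3-fold and 4-fold, with 13 false calls among 176. Its noise was drawn independently for each probe and array, so it does not give the share of real changes that would be found. Alternatives changed the background correction, the scaling, the deposited table, the filter, the variance model, the probe for a gene and the clones included. For the other list they were added after its values were seen.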

Additional observations from a re-analysis of the deposited data

How the results depend on the processing

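No member passed an adjusted p of 0.05 under any of the 9 settings or 6 omissions of a clone tried (limma). The lowest adjusted p was 0.0761, for Fas without control 2. Between 2 and 8 members had an unadjusted p under 0.05 in these runs, and the share of all genes at that p was not taken run by run. In the main run 15.4% of the members tested and 10.1% of all genes tested had such a p, so the range has no background of its own. Of the other cell death genes, whose alternatives were chosen after seeing the data, 1 was called in each setting but the mean of the tested probes (0, with 8 at an unadjusted p under 0.05) and 0 to 2 in the omissions. The median of the set stayed between -0.0062 and 0.053. The number of probes called was 50 and ran from 38 to 68 in the settings; it ranged from 0 (without control 1, with 1934 at an unadjusted p under 0.05) to 158 (without control 2) in the omissions, with 10 without control 3 and 18 without FEAT 3. Of 39 genes, 30 kept their sign in every setting in which they were tested and 19 also in every omission. Signs turned with the mean of the tested probes for Aifm1 0.0075, Apaf1 0.0012, Bcl2l2 -0.0018, Casp12 -0.0089, Casp9 -0.043, Tnfrsf10b -0.0059 and Tnfrsf1a 0.025. With median scaling they turned for Apaf1 0.0067, Birc2 0.014 and Tradd 0.020. In the omissions, the log2 difference ran from -0.16 to 0.077 for Apaf1, -0.14 to 0.093 for Bad, -0.0021 to 0.12 for Bag1, -0.082 to 0.059 for Birc2, -0.26 to 0.16 for Bmf, -0.16 to 0.083 for Bok, -0.096 to 0.22 for Casp12, -0.014 to 0.056 for Cycs, -0.061 to 0.18 for Dapk1, -0.21 to 0.0088 for Dapk3, -0.034 to 0.10 for Diablo, -0.058 to 0.10 for Fadd, -0.045 to 0.95 for Pmaip1, -0.046 to 0.13 for Tnfrsf10b, -0.21 to 0.12 for Tnfrsf1a, -0.11 to 0.11 for Tradd and from -0.43 to 0.35 for Xiap, for which another probe was the brightest without control 2 or control 3. The other causes were not tested. No paired analysis was possible because the groups share the clone number 3 alone, and the numbers only name clones. Signal over background limits Bmf, Pmaip1, Casp1, Casp12, Dapk1 and Xiap, whose brightest probes were not above the limit on all 6 arrays. That of Xiap was above it on none.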
